A study of Mus musculus with 4 samples.

Results

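The forkhead genes other than the Foxo group were examined in mouse calf muscle by chromatin immunoprecipitation and sequencing of histone H3 trimethylated at lysine 4 (H3K4me3). Members were the protein-coding genes of the GENCODE M21 annotation on build mm10 whose symbol is Fox, a letter from a to s and a number, without Foxo genes. This gave 40 genes of 21755 protein-coding genes on the autosomes and the X chromosome. The tissue was gastrocnemius of female B6CASTF1/J mice, the cross of C57BL/6J and CAST/EiJ, at 2 months of age, with no treatment and a single condition. There were 4 libraries from 2 pools, called E and F, with 2 biosamples in each pool and 2 technical libraries per pool. Peak lists were deposited per pool, for both pools together, and as a replicated list made from both pools. A peak's signal value is the authors' own number, and what it is relative to is not stated. The replicated list carries values from the 2 pools together and is no further replicate.

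Forkhead proteins share a winged-helix domain that binds DNA, and many of them fix the identity of a lineage during development. Foxf and Foxd genes act in mesenchyme, Foxc genes in blood vessels and lymphatics, Foxa genes in the liver, lung and gut, and Foxp3 in regulatory T cells, while Foxk, Foxj2, Foxj3 and several Foxn and Foxp genes are expressed in many tissues. H3K4me3 is a mark of promoters, found both at active genes and, at CpG-rich promoters of silent developmental genes, together with repressive H3K27me3. Each member was put in 1 of 7 expression classes from textbook knowledge. Mesenchymal and vascular cells live in muscle, and the classes of endoderm and epithelium, of nervous system, lens and neural crest, of germ line, gonad and early embryo, and of lymphoid cells were treated together as foreign lineages. Foreign is a label here and does not mean that cells of these classes are absent from muscle. The mesenchymal members are in part best known from other organs, such as kidney, lung and gut. Several members are expressed in more than 1 class, so the class names the best-known site only.

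A gene was called marked where a peak lay within 1000 bp of any annotated transcription start site (TSS). Its level was the signal value of the highest such peak, and its width that of the widest domain near a TSS, a domain being peaks joined over gaps of at most 1000 bp. Promoter sequences were taken from RefSeq (GRCm38.p6, the build of the peak lists), which held 31 entries for 26 of the 40 members. No entry was found for 14 members, among them Foxc2, Foxf1, Foxl1 and Foxs1. The 250 bases before the RefSeq start of 5 members are shown 5′ to 3′ in the direction of transcription, with every CpG dinucleotide in capitals, since CpG content went with marking. Foxc1 and Foxd2 stand for marked vascular and mesenchymal genes, Foxd3 and Foxb2 for marked genes of foreign lineages, and Foxi1 for the unmarked genes.
Foxc1, chr13:31806396-31806645, plus strand: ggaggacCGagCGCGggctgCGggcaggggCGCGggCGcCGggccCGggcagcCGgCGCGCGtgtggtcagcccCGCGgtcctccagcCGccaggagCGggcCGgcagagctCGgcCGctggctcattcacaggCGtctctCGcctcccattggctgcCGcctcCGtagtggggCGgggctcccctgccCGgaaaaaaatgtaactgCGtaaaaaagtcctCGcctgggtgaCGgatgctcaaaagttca
Foxd2, chr4:114908899-114909148, minus strand: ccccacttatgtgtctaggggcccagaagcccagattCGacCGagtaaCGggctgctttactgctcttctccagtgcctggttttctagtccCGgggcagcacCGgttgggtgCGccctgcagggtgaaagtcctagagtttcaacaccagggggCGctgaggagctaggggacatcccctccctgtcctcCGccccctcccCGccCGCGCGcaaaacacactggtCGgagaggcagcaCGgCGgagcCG
Foxd3, chr4:99656049-99656298, plus strand: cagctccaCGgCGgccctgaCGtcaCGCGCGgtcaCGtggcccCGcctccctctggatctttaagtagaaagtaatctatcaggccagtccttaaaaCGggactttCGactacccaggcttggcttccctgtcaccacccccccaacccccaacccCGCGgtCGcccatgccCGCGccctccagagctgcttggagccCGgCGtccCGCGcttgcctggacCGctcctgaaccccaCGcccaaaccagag
Foxb2, chr19:16873831-16874080, minus strand: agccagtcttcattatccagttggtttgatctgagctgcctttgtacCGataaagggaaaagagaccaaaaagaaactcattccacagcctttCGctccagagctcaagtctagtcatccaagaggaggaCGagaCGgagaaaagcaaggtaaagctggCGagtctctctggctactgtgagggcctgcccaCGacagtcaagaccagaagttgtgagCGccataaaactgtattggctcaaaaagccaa
Foxi1, chr11:34208090-34208339, minus strand: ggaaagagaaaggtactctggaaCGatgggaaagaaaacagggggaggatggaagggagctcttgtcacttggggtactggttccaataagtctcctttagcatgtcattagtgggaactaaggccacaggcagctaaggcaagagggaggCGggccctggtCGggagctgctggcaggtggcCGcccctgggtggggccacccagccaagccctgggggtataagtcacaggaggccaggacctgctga
The Foxc1 window held 29 CpGs, that of Foxd3 21 and that of Foxd2 16. The Foxb2 window held 7 and the Foxi1 window 4. In the replicated list, peaks covered all 250 bases at Foxc1, Foxd2, Foxd3 and Foxb2, and 0 bases at Foxi1. Over the windows of 300 bases in the table, which add the first 50 bases after the start, the median number of CpGs was 22.5 in the 26 promoters of marked members, 6 in the 5 promoters of unmarked members and 7 in all promoters. These were grouped by gene, and both Foxp3 entries (6 and 8 CpGs) and the Foxn3 entry (6 CpGs) lay at TSSs with no peak. The forkhead motif TGTTTAC, searched on both strands, occurred in 1 of the 31 member promoters (3.23%, at Foxa1) and in 3.65% of all 32851 promoters of the table. Its first 6 letters alone, TGTTTA, which lie within the longer motif, occurred in 5 of 31 (16.1%) and in 13.4% of all.

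Most forkhead genes were marked, and the level was highest in the broadly expressed class. In the replicated list 33 of the 40 members were marked (82.5%), where 69.3% of all protein-coding genes were. The pool E list marked 34 members (69.3% of all genes) and the pool F list 31 (68.9% of all genes), while the list of both pools together marked 33 (69.5% of all genes). Both pool lists marked 31, where 68.6% of all genes were marked in both. The median signal value of the 33 marked members was 42.6, against 45.2 for all marked genes, and their median width was 2804 bp against 2400 bp. Without genes whose highest peak lay near a start of another protein-coding gene, the median signal value was 27.6 for 27 members and 44.2 for 11931 genes. All 5 mesenchymal, all 3 vascular and all 9 broadly expressed members were marked, and 16 of the 23 members of foreign lineages. The median signal value was 59.7 in the broadly expressed class, 34.9 over the mesenchymal and vascular members and 18.5 over the marked members of foreign lineages. Median widths in the same order were 3548, 3070 and 2115.5 bp. In signal value the mesenchymal and vascular members (2.91 to 46.5) overlapped the marked members of foreign lineages (4.12 to 49.4). The median of all marked genes was reached or passed in signal value by 9 of 9 broadly expressed members, 2 of 8 mesenchymal and vascular members and 2 of 16 marked members of foreign lineages. In width it was reached or passed by 8, 6 and 6 members. Members are not replicates of a class and the tissue has a single condition, so these are descriptions with no test. A low value from a few strongly marked cells and one from many weakly marked cells cannot be told apart in whole tissue.

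**Figure D1:**
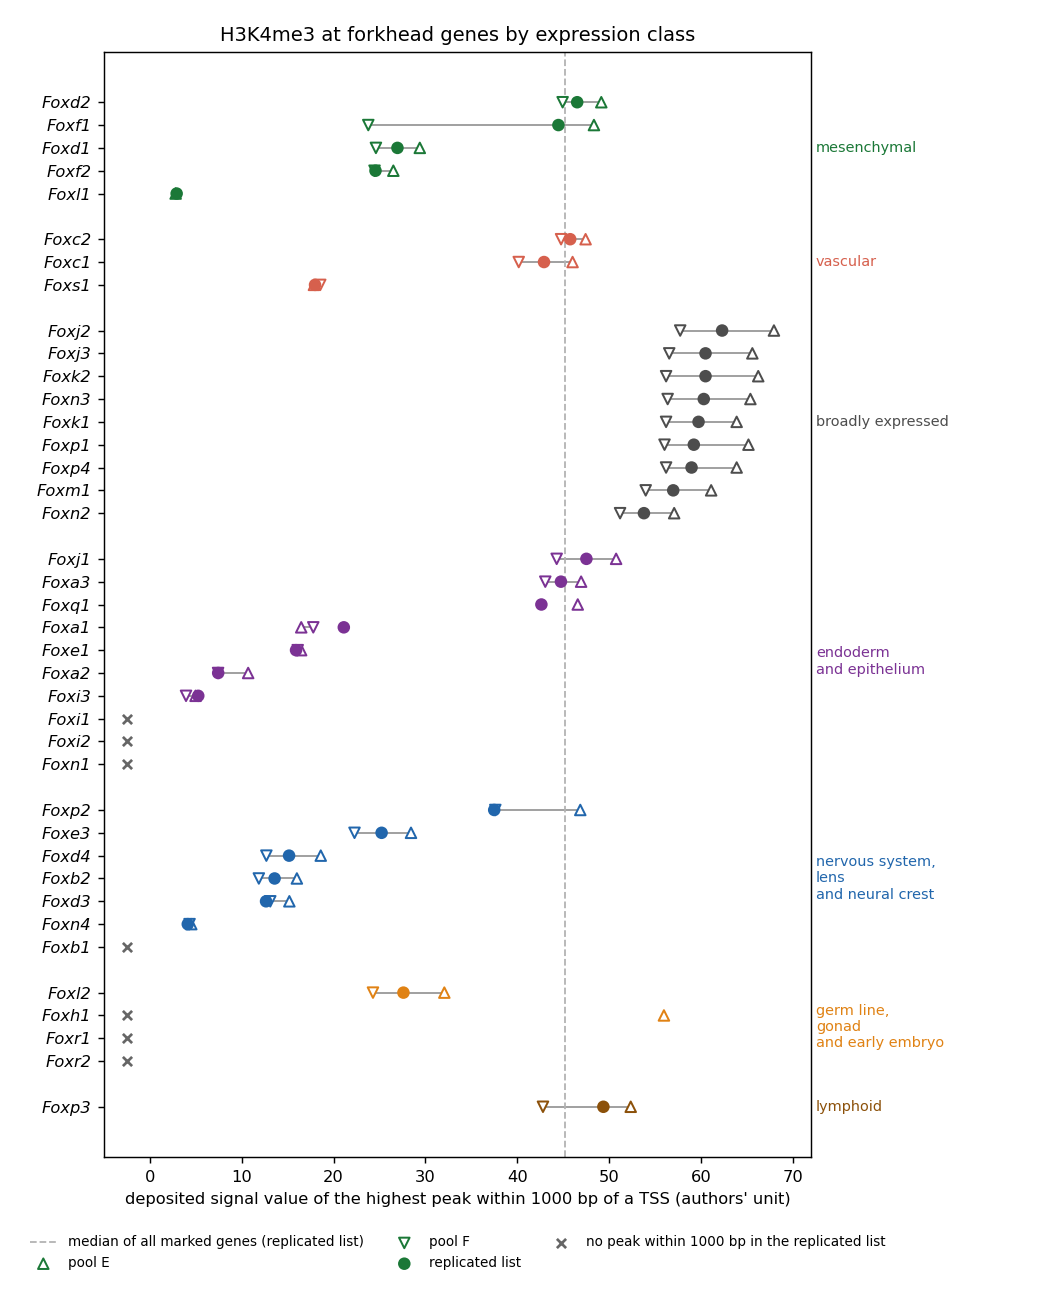
Signal value (x axis, authors' unit) of the highest peak within 1000 bp of a TSS for the members reported here, grouped by expression class. Filled circles are the replicated list, open triangles the lists of pool E (up) and pool F (down), crosses at the left edge mark members with no such peak in the replicated list, and the dashed line is the median of all marked genes, 45.2; the 9 broadly expressed members all lie to the right of it.

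CpG content of the promoters went with marking. All 23 members of the high CpG class were marked, where 99.3% of all genes of that class were, so marking in this class says little about a member. In the intermediate class 8 of 11 members were marked (93.9% of all such genes), and in the low class 2 of 6, Foxq1 and Foxs1 (25.2% of all such genes). The 9 broadly expressed members and 7 of the 8 mesenchymal and vascular members belonged to the high class, as did 7 of the 16 marked members of foreign lineages. Within the high class alone the median signal values were 59.7, 42.9 and 21.1 and the median widths 3548, 2823 and 2168 bp, against 51.5 and 2792 bp for all marked genes of the class. The order of the 3 groups was thus the same among CpG-rich promoters. Many members are compact genes: 21 had a single TSS, and 17 of these were marked, where 39.8% of all genes with 1 TSS were. All 13 members with 1 exon were marked, where 34.5% of all genes with 1 exon were. Foxl1 and Foxq1 are among the 13, through peaks 642 and 961 bp from the TSS. These shares were not matched for CpG class, and 23 of the 40 members but 6843 of all 21755 genes were of the high class. The part of CpG content in them was not tested.

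Of the mesenchymal members, Foxd2 and Foxf1 had the highest signal values. Foxd2, a regulator of paraxial mesoderm and kidney stroma, had 46.5 in the replicated list, 49.1 in pool E and 44.9 in pool F. Its domain of 3317 bp also lay over the TSS of the divergent non-coding gene Foxd2os. Foxf1, needed in the mesenchyme of lung and gut, had 44.5, with 48.3 in pool E and 23.8 in pool F. Both pools thus marked Foxf1 with a domain of nearly the same width (2755 and 2892 bp), and the signal value in pool F was far lower than in pool E. The −log10 q deposited for this peak was 325 in pool E and 213 in pool F. In pool F, Foxf2 and Foxd1 had like signal values to Foxf1, with a −log10 q of 118 and 130. The Foxf1 peak, at chr8:121082353-121085175, ran from -2033 to 789 bp relative to the TSS. It also covered the starts of the divergent non-coding gene Fendrr and of Gm27530. Its summit lay at -807 bp in the replicated list, -806 bp in that of pool E and -515 bp in that of pool F, nearer to Fendrr than to Foxf1 in the replicated list.

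The ratio of pool F to pool E in signal value at Foxf1 was 0.492, and of 14930 genes marked in both pools 62 (0.415%) had a lower ratio. The median ratio was 0.862 over the 31 members marked in both pools and 0.863 over all genes, with 2.5th and 97.5th percentiles of 0.610 and 1.195 over all genes. Pool F was below pool E at 29 of the 31 members, and above it at Foxa1 (1.08) and Foxs1 (1.04). Of all genes marked in both pools, 88.6% had a ratio below that of Foxe1 (0.977) and 93.0% one below that of Foxs1. Most genes were thus lower in pool F, and the count is no trait of the members. The Foxf1 value is therefore outside the range of most genes, while the median of the members was that of all genes. With 1 value per pool no test was possible.

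Foxd1, known from kidney stroma and pericyte precursors, had a signal value of 27.0, with 29.4 in pool E and 24.6 in pool F, over 2507 bp. Foxf2, known from pericytes and gut mesenchyme, had 24.6, with 26.5 and 24.5, over 2229 bp. Both lay below the median of all marked genes in each list, and their ratios of pool F to pool E, 0.837 and 0.923, were within the range of most genes given above. The Foxf2 peak, at chr13:31625010-31627238, also covered the starts of the non-coding genes 1700018A04Rik and Gm27516. Foxl1, a gene of mesenchyme under the gut epithelium, stood apart. Its only peak within 1000 bp had a signal value of 2.91 and a width of 359 bp, and lay 642 bp into the single exon of the gene. Pool E gave 2.80 there, and pool F had no peak within 1000 bp, its nearest lying 1845 bp away. At Foxl1 the TSS itself lay under no peak in any of these 3 lists.

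Of the vascular members, Foxc1 and Foxc2 were marked over nearly the whole gene. Foxc1, needed for vessels, the heart and the anterior eye, had a signal value of 42.9, with 46.0 in pool E and 40.2 in pool F. Its single peak at chr13:31805880-31812192 was 6313 bp wide and covered 95.1% of the gene, with widths of 6247 and 6283 bp in the pools. Foxc2, known for lymphatic valves, had 45.8, with 47.4 and 44.8, and a domain of 3470 bp, with 3506 and 2601 bp in the pools. The wider domains include a second peak of low signal value at the end of the gene (2.89 in the replicated list), which pool F lacked. Foxs1, described in pericytes and sensory neurons, had 18.0, with 17.9 and 18.5, in a domain of 4727 bp that began 74 bp upstream of the TSS and covered the whole gene. Foxs1 was 1 of 2 marked members with a low-CpG promoter. Its level was at percentile 13.0 of all marked genes and its width at percentile 86.1, where Foxc1 was at percentiles 44.0 and 92.9.

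**Figure D2:**
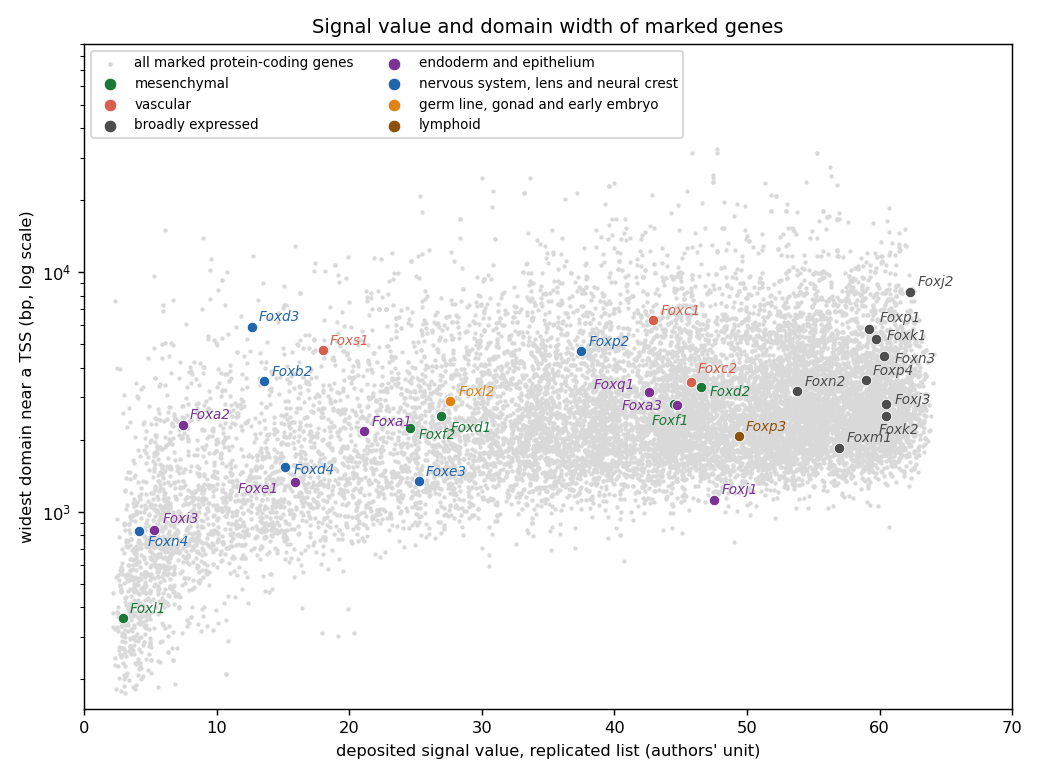
Signal value of the highest peak (x axis, authors' unit) against the width of the widest domain near a TSS (y axis, bp, log scale) in the replicated list. Grey points are all marked protein-coding genes and coloured points the marked members reported here by class; Foxd3, Foxs1 and Foxb2 lie high at the left, wide with a low signal value, and Foxj1 lies low at the right.

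The members put in the broadly expressed class formed the top of the family in level. In the replicated list the values were 62.3 for Foxj2, 60.5 for Foxj3, 60.5 for Foxk2, 60.3 for Foxn3, 59.7 for Foxk1, 59.2 for Foxp1, 59.0 for Foxp4, 57.0 for Foxm1 and 53.8 for Foxn2. Every one of these lay above all members of the other classes, of which the highest was Foxp3 at 49.4. Pool E values ran from 57.1 at Foxn2 to 67.9 at Foxj2 and pool F values from 51.2 to 57.7 at the same genes, so the lowest in pool F was still above every pool F value of the other classes. In pool E the value of 56.0 at Foxh1 came near to Foxn2. Widths ran from 1852 bp at Foxm1, a driver of mitotic genes, to 8315 bp at Foxj2, where 3 peaks were joined. Without joining, Foxj2 had 3839 bp and Foxp1, at 5163 bp, was wider. Foxk1, known in muscle precursors, and Foxk2, both repressors that work with Sin3, had levels of 59.7 and 60.5 and widths of 5282 and 2519 bp. Foxm1 shared its peak with the divergent gene Rhno1 and Foxj3 with Frg2f1. For Foxm1 the summit was nearer to the other gene, at 12 bp against 284 bp. Placing Foxm1, as a driver of mitotic genes, in this class is open to doubt. Without it the lowest value of the class, 53.8 at Foxn2, is the same.

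Marked members of foreign lineages were of mixed kinds. The highest was Foxp3, the factor of regulatory T cells, with 49.4 in the replicated list, 52.3 in pool E and 42.8 in pool F. Only 1 of the 7 annotated TSSs of Foxp3 lay near a peak, the most upstream, and that peak, chrX:7573020-7575082, also covered the starts of Ppp1r3f, a regulatory subunit of protein phosphatase, and of the non-coding gene Flicr. Its summit was nearest the Foxp3 TSS, at 206 bp in the replicated list and in pool E and at 220 bp in pool F. The 6 TSSs at 5923 to 12711 bp downstream had no peak in the replicated list or in either pool list, and with the transcripts of the basic annotation alone Foxp3 was unmarked. The lymphocyte markers Cd3e, Cd3g and Cd79a, all of the low CpG class, were unmarked as well.

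A like overlap with a neighbour was found at 6 of the 33 marked members (18.2%), among them Foxa3, Foxj3, Foxm1, Foxp3 and Foxq1, and at 20.8% of all marked genes. At these the highest peak lay within 1000 bp of a TSS of another protein-coding gene. Foxa3, a liver factor, had 44.8, with 46.9 in pool E and 43.0 in pool F, and the summit of its peak lay 1177 bp upstream, close to the start of Sympk, which codes for an mRNA 3′ end processing factor. Foxq1, an epithelial factor, had 42.6 in the replicated list and 46.6 in pool E, but its peak started 961 bp and 866 bp from the TSS in these lists. In pool F the same peak, of 39.6, started 1110 bp away and so fell outside the window. The peak lay within the Foxq1 exon and over the start of A530084C06Rik on the other strand. Without members whose peak was shared in this way, the medians were 34.9 and 3070 bp for 8 mesenchymal and vascular members, 59.7 and 4490 bp for 7 broadly expressed members, and 15.5 and 1853 bp for 12 members of foreign lineages. None of the mesenchymal and vascular members shared its peak with a coding gene.

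Of the epithelial and endodermal members with a peak of their own, Foxj1 had the highest level. Foxj1, the master factor of motile cilia, had 47.5, with 50.8 in pool E and 44.3 in pool F, in a narrow domain of 1122 bp (percentile 9.40 in width). Foxa1, a pioneer factor of liver, lung and prostate, had 21.1 in the replicated list and 16.5 and 17.8 in the pools, over 2168 bp. Foxe1, known in the thyroid, had 15.9, with 16.5 and 16.1. Foxa2, the factor of endoderm and floor plate, had 7.43, with 10.7 and 7.42, and Foxi3, known in ear and tooth, 5.26, with 4.97 and 3.93. Levels in this class thus ran from among the lowest of the family to near the median of all marked genes. The epithelial markers Epcam, Cdh1, Krt8 and Krt18 were all marked, at 6.78 to 23.7 with a median width of 996.5 bp. Of the 4 hepatocyte markers, all of the low CpG class, 0 were.

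In the class of nervous system, lens and neural crest 7 of 8 members were marked at a median of 13.6. Foxp2, known from speech circuits and brain, was the highest at 37.5, with 46.9 in pool E and 37.6 in pool F. Foxe3, a lens factor, had 25.2, with 28.4 and 22.3, over 1343 bp that spanned the whole gene. Foxd4 had 15.1, with 18.6 and 12.7. All members of this class had a level below the median of all marked genes in the replicated list.

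Foxb2, known from the developing neural tube, had 13.6, with 16.0 in pool E and 11.9 in pool F. Foxd3, a factor of neural crest and of pluripotent cells, had 12.6, with 15.2 and 13.1. Foxb2 and Foxd3 had levels close to each other, with widths of 3508 and 5922 bp. The Foxd3 domain joined 2 peaks, and without joining its width was 3280 bp, below that of Foxb2. Foxn4, a retinal and spinal cord factor, had 4.12, with 4.50 and 4.32, over 828 bp. Of the neuronal markers, Syt1, Tubb3 and Rbfox3 were marked at 7.45 to 10.02 and Snap25 was unmarked. The part of any one cell type in these values was not tested.

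Of the members of germ line, gonad and early embryo only Foxl2 was marked in the replicated list. Foxl2, the ovarian granulosa factor, had 27.6, with 32.1 in pool E and 24.3 in pool F, in a domain of 2894 bp that also covered the start of the divergent non-coding gene Foxl2os. Foxh1, the Smad partner in Nodal signalling, was at the edge of the rule. Its nearest peak, over the start of Ppp1r16a, lay 1009 bp away in the replicated list, 997 bp away in pool E and 1004 bp away in pool F, so that Foxh1 counted as marked, at 56.0, in pool E alone. Along with Foxq1 and Foxl1 it was 1 of 3 members marked in pool E only, a state found at 0.625% of all genes, and 0 members were marked in pool F only (0.248% of all genes).

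The other unmarked members were Foxb1, Foxi1, Foxi2, Foxn1, Foxr1 and Foxr2. Foxb1, a diencephalon factor, had its nearest peak 1287 bp downstream in the replicated list, and 1230 and 1387 bp downstream in pools E and F, with signal values of 5.64, 4.66 and 4.40. For the rest the nearest peak of the replicated list lay 12530 bp away at Foxr2, 13323 bp at Foxr1, 25669 bp at Foxn1, the thymus epithelium factor, 38423 bp at Foxi1 of the inner ear and kidney, and 118400 bp at Foxi2. None of these 5 genes had a peak within 1000 bp of a TSS in the replicated list or in either pool list, and of them Foxi1, Foxn1 and Foxr2 were of the low CpG class. Members just inside the 1000 bp limit were Foxq1 at 961 bp and Foxl1 at 642 bp, and the one just outside was Foxh1 at 1009 bp. A peak over a TSS itself was found at 28 members (67.0% of all genes), and a peak within 2500 bp at 35 (70.4% of all genes).

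The highest peak often had its summit away from the TSS. In 11 of the 33 marked members (33.3%) the summit lay more than 500 bp from every TSS of the gene, where 9.91% of all marked genes had this. In pool E it was 12 of 34 members (10.4% of all genes) and in pool F 8 of 31 (9.94% of all genes). The median distance was 340 bp in members and 163 bp in all marked genes. Members had a median of 1 TSS, against 3 for all protein-coding genes, so their summits had fewer TSSs to lie near. The part of this in the difference was not tested. In 9 of the 11 the summit lay downstream of the TSS. Foreign lineages held 8 of the 11, and 16 of the 33 marked members. At Foxa3 and Foxq1, which are among the 11, the summit was nearer to a TSS of another coding gene. It lay 1152 bp downstream at Foxb2, 1064 bp at Foxe1, 1054 bp at Foxd4 and 992 bp at Foxd3. At Foxe1 a TSS of Gm12446 was nearer, at 842 bp, and at Foxd3 one of Gm23366, at 451 bp. With genes of any type counted, the summit was nearest to a TSS of another gene at 8 of the 33 marked members. In the replicated list the peak itself began 402 bp downstream of the TSS at Foxd4 and 277 bp downstream at Foxe1, and in pool F a second Foxe1 peak, of 2.95, lay over the TSS. The limit of 500 bp was chosen with the values in view.

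Short forkhead genes were often covered along their length. Of the 20 marked members of at most 7000 bp, peaks lay over at least 90% of the gene in 6 (30%), where this held for 17.9% of marked genes of that length. These were Foxb2, Foxd3, Foxe3 and Foxs1, covered in full, and Foxc2 and Foxc1, covered to 95.4% and 95.1%. The median share of the gene under peaks was 60.7% in the 20 members and 41.98% in the 2581 genes. Width and level went apart at 4 members whose width percentile was more than 50 points above the signal percentile (12.1%, against 7.99% of all marked genes). In the replicated list the gap was 82.5 points at Foxd3, 73.1 at Foxs1, 64.7 at Foxb2 and 51.8 at Foxp2. Foxp2 did not pass this limit in either pool list. In pool F Foxc1 passed it, at percentile 43.4 in signal value and 94.1 in width. The domains of Foxd3 and Foxs1 each joined 2 peaks, and that of Foxp2 joined 3. The reverse held for 1 member, Foxm1, and for 5.66% of all genes. These limits too were chosen with the values in view.

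**Figure D3:**
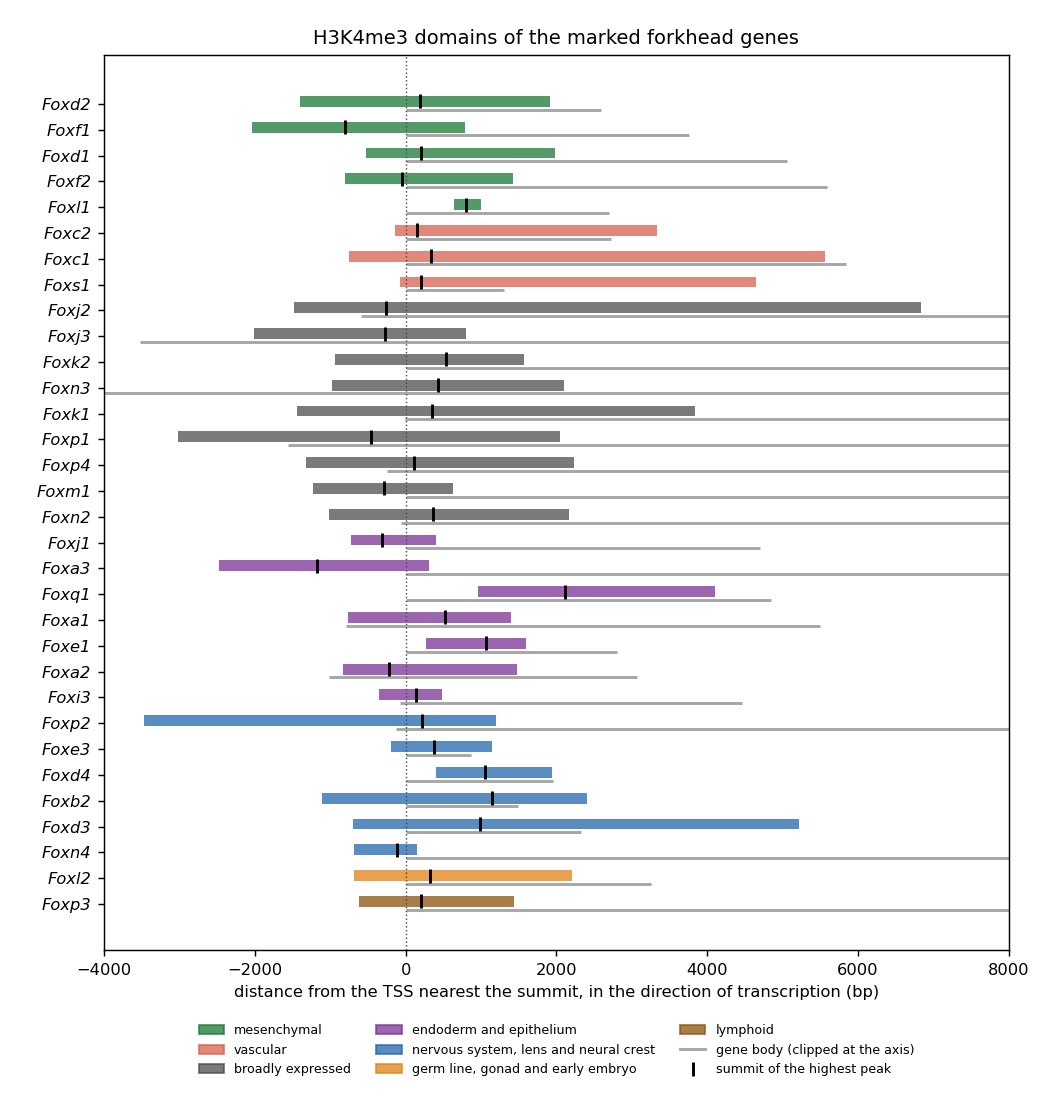
Position of the H3K4me3 domain that holds the highest peak for the marked members reported here, in bp from the TSS nearest the summit along the direction of transcription (x axis), replicated list. Bars are domains coloured by class, black ticks summits and grey lines gene bodies clipped at the axis. Foxd4, Foxe1, Foxl1 and Foxq1 have bars wholly downstream of the TSS, and the Foxb2, Foxc2, Foxd3, Foxe3 and Foxs1 bars run past the end of the gene.

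In all, 6 of the members lie in a pair of clusters that arose by duplication. On chromosome 8, Foxf1, Foxc2 and Foxl1 span 46259 bp, and with 20 kb on either side the replicated list held 7 peaks, pool E 8 and pool F 5. Besides the promoters described above and that of Mthfsd (58.5), a folate metabolism gene between Foxf1 and Foxc2, the region held a peak of 14.2 at 10374 bp upstream of Foxf1, inside Fendrr, and one of 13.9 at 1847 bp upstream of Foxl1. Pool E gave 17.1 and 16.5 at these sites and pool F 12.5 and 12.2. The peak upstream of Foxl1 was thus higher than that within Foxl1 in pool E, and in pool F it was the only one of the pair. The 3 peaks that pool E had and pool F lacked were weak, at 3.86, 2.80 and 2.49.

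On chromosome 13, Foxq1, Foxf2 and Foxc1 span 256343 bp, and each list held 7 peaks. Besides the promoter peaks there was one of 18.5 at 6898 bp from the Foxf2 TSS, near the start of the non-coding gene Gm11378, one of 23.6 within Foxf2 at 3241 bp, one of 20.2 at 4353 bp from Foxc1 and one of 15.6 at 13932 bp from Foxc1. The second Foxf2 peak had 19.4 in pool E and 21.6 in pool F, close to the promoter peak at 26.5 and 24.5. With peaks joined over 2500 bp the 2 Foxf2 peaks formed a domain of 5247 bp. Thus the Foxf and Foxc promoters were marked in both clusters, at like levels for Foxc1 and Foxc2, and the remaining gene of each cluster, Foxl1 or Foxq1, met the rule in pool E and not in pool F.

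**Figure D4:**
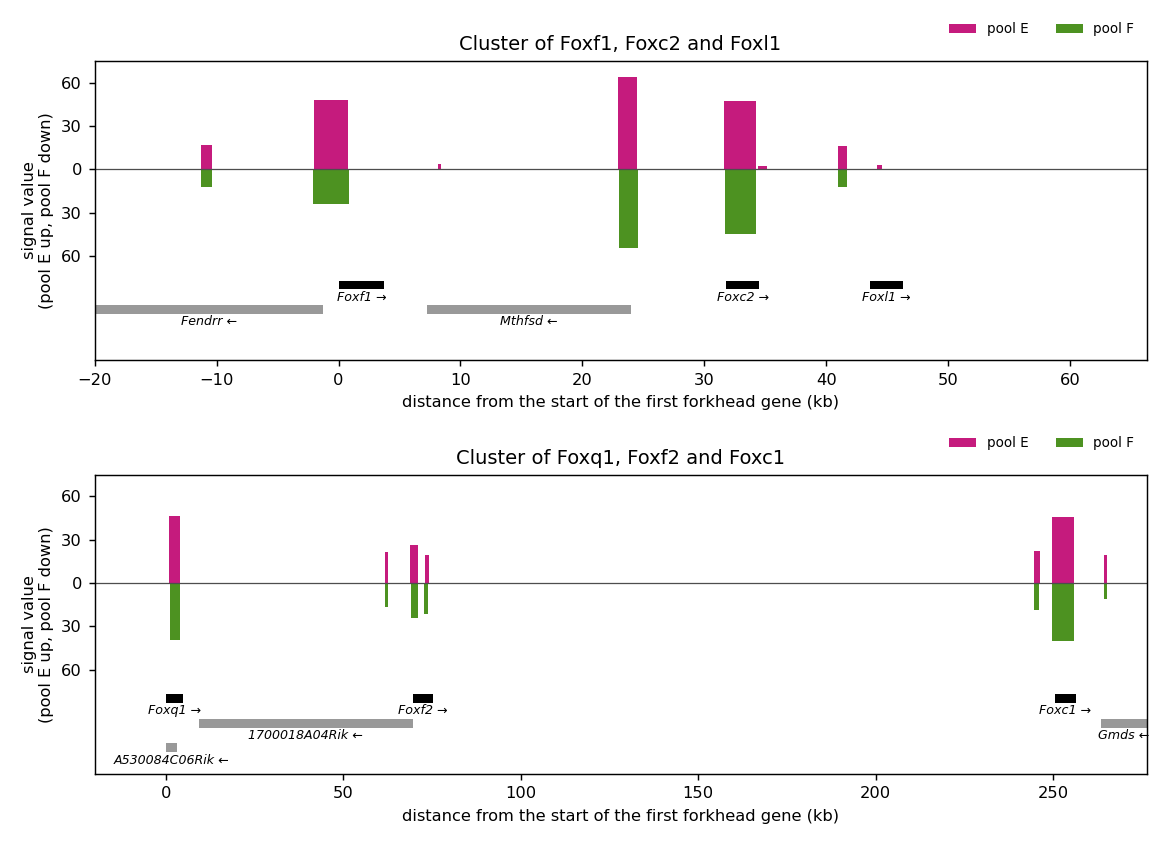
Peaks along both forkhead clusters, in kb from the start of the first forkhead gene (x axis), with the signal value of pool E drawn upward and that of pool F downward (y axis, authors' unit). Black bars are forkhead genes and grey bars other genes, arrows give the strand, and the narrowest peaks are drawn wider than they are; at Foxf1 the pool F bar reaches 23.8 and the pool E bar 48.3.

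Several large members had more than 1 marked promoter. Of the 22 annotated TSSs of Foxp1, a transcriptional repressor, 13 lay near a peak, in 4 groups. The most upstream group had 59.2 and the group from 493779 to 494730 bp downstream had 53.1, with 57.9 in pool E and 49.5 in pool F. Between them lay a TSS group at 256189 bp with 14.7 and a TSS at 426516 bp with 17.5. The latter had 31.1 in pool E and 16.3 in pool F. Foxn3, a cell cycle checkpoint gene, had strong peaks at its first TSSs (59.2, with 65.4 in pool E and 55.01 in pool F) and at 169785 to 170510 bp downstream (60.3, with 65.2 and 56.4). A further Foxn3 TSS, at 206563 bp, had a weak peak of 2.80, with 3.26 in pool E and none in pool F.

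Foxp2 had 10 of 16 TSSs near a peak. The upstream group had 37.5 and a second group, from 283298 to 284214 bp downstream, had 22.9, with 25.8 in pool E and 22.4 in pool F, under a peak of 4008 bp. The 6 TSSs farther downstream had none. Foxj2 had a second peak of 29.1 at the TSS 6761 bp downstream, with 31.0 and 27.7. Foxp4 had a weak peak of 4.18 at the TSS 45692 bp downstream, which pool F listed at 4.998 and pool E lacked. In each of these genes the level differed between the gene's own promoters, and in Foxn3 the 2 strong ones had nearly equal levels.

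**Figure D5:**
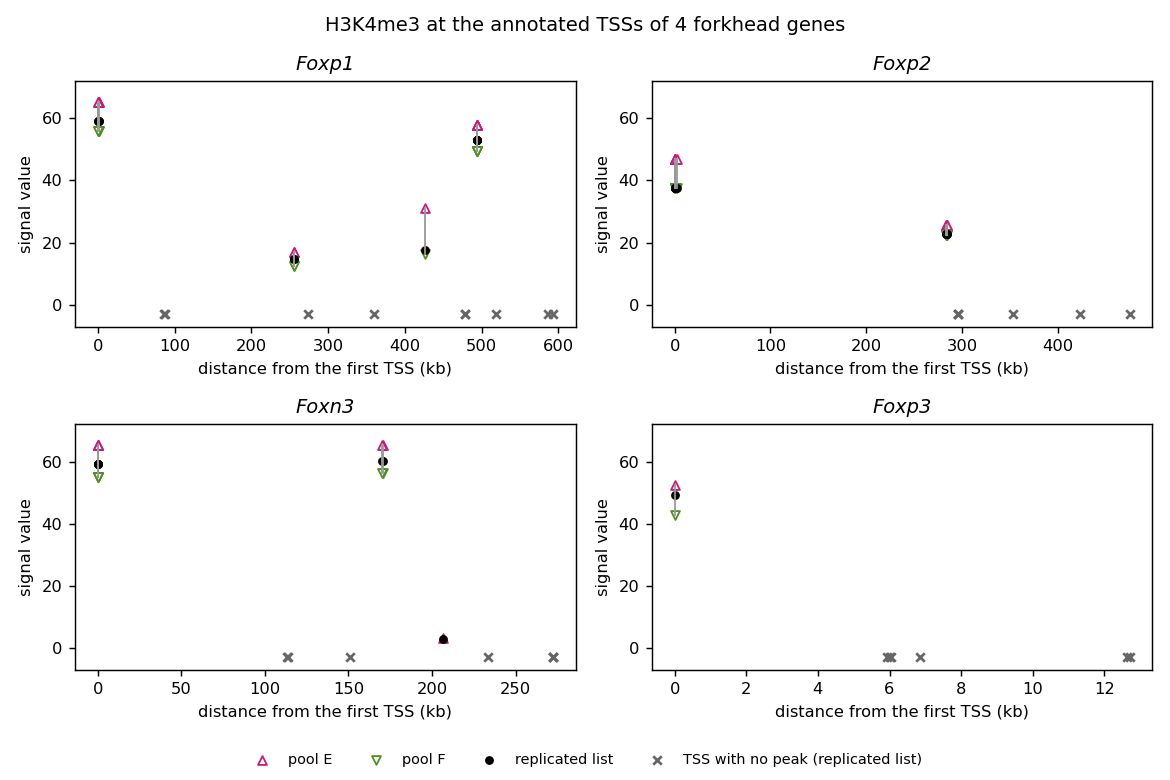
Signal value of the highest peak within 1000 bp (y axis, authors' unit) at each annotated TSS of Foxp1, Foxp2, Foxn3 and Foxp3, by distance from the first TSS (x axis, kb). Black points are the replicated list, triangles pool E (up) and pool F (down), and crosses below 0 are TSSs with no peak; in Foxp3 a single TSS of 7 has a peak.

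Other families of factors were counted in the same way. All 4 Foxo genes were marked, at a median of 49.3 and 6241 bp, with 55.5 at Foxo1, 54.3 at Foxo6 and 44.3 at Foxo3. Of the Sox genes 18 of 19 were marked (median 33.0), of the Klf genes 16 of 17 (52.5), of the Tbx genes 11 of 13 (28.5) and of the Gata genes 5 of 6 (33.0). The forkhead median of 42.6 lay between those of the Sox and the Klf genes. Without genes whose highest peak was shared with another coding gene it was 27.6, below those of the Sox (31.1), Klf (52.5), Tbx (28.5) and Gata genes (33.0). Its median width of 2804 bp lay below those of Sox (4380.5 bp), Klf (5605.5 bp) and Gata genes (5639 bp) and above that of Tbx genes (2608 bp).

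Genes known to work with forkhead members were marked as follows. In Hedgehog signalling, which acts upstream of Foxf and Foxd genes, 13 of 14 genes were marked at a median of 42.9, led by the co-receptor Cdon (60.5), the inhibitor Sufu (59.7) and the transducer Smo (58.7), and the ligand Shh was unmarked. Of the Nodal and Smad genes that act with Foxh1, 7 of 11 were marked, led by Acvr2b (57.7), Smad3 (57.6) and Acvr1b (53.6). The unmarked ones were the ligands Gdf1 and Gdf3, the antagonist Lefty2 and the co-receptor Tdgf1. The receptors and Smad proteins are used by other ligands of the same superfamily.

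All 9 mitotic genes that Foxm1 is known to drive were marked, led by Ccnb1 (51.7), Aurkb (50.3) and Nek2 (47.9), at a median width of 1491 bp. Of 7 ciliary genes downstream of Foxj1, 6 were marked, led by Rfx3 (63.5), Dnali1 (59.6) and Ccdc39 (34.4), and the dynein gene Dnah5 was unmarked. All 4 Foxk partners were marked, with Bap1 at 62.6, Asxl2 at 56.3 and Sin3a at 54.0, and all 5 Foxp partners, with Ctbp1 at 60.8, Mta1 at 57.0 and Hdac2 at 56.6. With 69.3% of all genes marked, these counts are a description of the lists only.

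The tissue label was checked with marker genes in the replicated list. All 8 skeletal muscle markers were marked at a median of 49.5 and 10088.5 bp. With 69.3% of all genes marked, markers of resident and of several foreign cell types were marked. These were 4 of 4 endothelial markers (median 28.3), 4 of 4 fibroblast markers (26.02) and 4 of 4 markers of pericytes and smooth muscle (10.8). So were 4 of 4 epithelial markers (19.6), 3 of 4 neuronal markers (8.83) and 3 of 4 ciliated cell markers (25.2), while 0 of 4 hepatocyte and 0 of 4 lymphocyte markers were. All hepatocyte and lymphocyte markers were of the low CpG class, of which 25.2% of all genes were marked. The 4 markers of pericytes and smooth muscle were of that class too. The lists held between 39544 and 45270 peaks, and the depth behind them is unknown, since no read counts were analysed here.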

How the data were processed

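H3K4me3 chromatin immunoprecipitation and sequencing was done on 4 libraries of gastrocnemius, 2 for each of pools E and F. The authors deposited 4 peak lists on mm10, per the labels and the text files of the samples: 1 for pool E, 1 for pool F, 1 for both pools and 1 of replicated peaks. Each pool's technical libraries were combined ahead of peak calling, so no list holds a value per library. For the aligner, peak caller and settings, names are not given in the sources used here. Each peak's signal value and −log10 q are the authors' deposited values. Both are peak values and were ranked only within a list. Values of the pools are printed side by side, and their ratio was read against that of all genes. The lists reach down to a −log10 q of 0.358, in pool F, so weak peaks are included, and depth is unknown.

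TSSs came from GENCODE M21 (93196 of protein-coding genes). Peaks within 1000 bp of a TSS marked a gene, and peaks at most 1000 bp apart were joined into domains. CpG classes used windows of 1000 bp at the TSSs: high with an observed to expected ratio of at least 0.75 and at least 55% GC, low with a ratio under 0.48 in every window, otherwise intermediate. Promoter windows came from RefSeq (GRCm38.p6). Python 3.11.15, pandas 2.3.3 and numpy 2.4.6 were used, and the marking code was tested on simulated data. Percentiles are among all marked protein-coding genes of the list. Values are given in every list for the mesenchymal, vascular and foreign-lineage members and for members whose state differed between lists, and from other lists of genes the 3 highest and up to 3 unmarked genes in alphabetical order. Members, classes and gene lists were chosen with earlier results of these data known. The alternatives were other TSS windows, transcript sets, q limits and joining distances, the list of both pools, each pool alone, and, chosen after seeing the data, leaving out shared peaks. No test was made, since there is a single condition with 2 pools. Reads of the 2 parental alleles were not analysed here. Values of 1 member are included in the counts and medians but are not reported here.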

Additional observations from a re-analysis of the deposited data

How the results depend on the processing

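The number of marked members stayed between 27 and 35 over the alternatives tried (33 in the report). Comparisons with other families were repeated only without shared peaks. The order of the class medians in signal value, broadly expressed above mesenchymal and vascular above foreign lineage, held in each of them. Leaving out 1 pool gave the following ranges. The median width of marked members was 2601 to 2830.5 bp. The mesenchymal and vascular median was 24.6 to 37.7 in signal value and 2892 to 3090.5 bp in width. The broadly expressed width was 3448 to 3580 bp. The foreign-lineage median was 16.1 to 18.6 and 2007 to 2092 bp, and 1 or 2 germ line, gonad and early embryo members were marked. The lowest mesenchymal and vascular value was that of pool F alone, where Foxf1 had 23.8. With a window of 0 bp the foreign-lineage median was 23.2 and 2239 bp and the mesenchymal and vascular width 3317 bp. With a window of 2500 bp the foreign-lineage width was 1887 bp and 2 germ line members were marked. With basic transcripts the foreign-lineage median was 15.9, the broadly expressed width 3187 bp and 0 lymphoid members were marked. Without joining, the mesenchymal and vascular width was 2717 bp, and with peaks joined over 2500 bp it was 3530 bp and that of all marked members 3149 bp. Without peaks near another protein-coding TSS, chosen after seeing the data, the median signal value of all marked members was 27.6, the foreign-lineage median 15.5 and 1853 bp, the broadly expressed width 4490 bp, and 0 lymphoid members were marked. The motif share was 16.1% with 6 letters in place of 7. The cause of these shifts was not tested, beyond the peaks or genes each alternative leaves out. No paired analysis was possible because the lists hold no value per library and there is no second condition.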
